A study of Mus musculus with 14 samples.

Results

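Subcutaneous mouse tumours labelled TMPC were compared with those labelled TM, both described by the submitters as gastric tumours grown from transplants under the skin. The comparison rests on 6 of the 14 samples of the series, namely 3 TM and 3 TMPC libraries chosen by their titles, with the 3 subcutaneous TMP libraries of the same table used to estimate the spread. Tissue of about 1 cm3 was collected 2 months after transplantation, and polyA RNA was sequenced with paired reads of 150 bp. The letters TM, TMP and TMPC are used here as names, because the labels give neither the alleles behind them nor the strain, age or sex of the hosts. Whether the 3 replicates of a group are different animals is not stated in the labels. The p-values therefore describe only how much these libraries vary, and that variation may be technical. A bulk library holds tumour cells and host cells together, so fewer cells of a type and less RNA per cell cannot be told apart in any result.

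A solid tumour is a mixture of dividing tumour cells, fibroblasts, vessels and leukocytes. Dividing cells switch on DNA replication genes through E2F factors when RB proteins release them, and mitosis genes later in the cycle, whose promoters often carry a short element called the cell cycle homology region. Interferons act through STAT and IRF factors on an element called ISRE and raise antiviral genes and the antigen presentation machinery. Genes of both kinds are well known to change between tumours that differ in growth or in leukocyte content.

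In the subcutaneous TMPC tumours the genes of DNA replication, mitosis, ribosome production and serine synthesis were higher than in TM tumours, with no overlap between the groups for most of them. Over all tested genes the groups did not overlap in 47.1%. Antiviral, Toll-like receptor, complement and macrophage genes were lower. At a Benjamini-Hochberg adjusted p of 0.05 in the quasi-likelihood test of edgeR, 2748 genes rose and 2721 fell of 15277 tested, which is 35.8% in all, 18% higher and 17.8% lower. These shares are the background for every list count below. Without TM replicate 2, 3238 genes rose and 3152 fell of 15668, or 40.8% in all, 20.7% higher and 20.1% lower. The total with all libraries was 3414 without TMPC replicate 2, and the count of falls was 1310 without TMPC replicate 2 and 1542 without TMPC replicate 3. Of the calls with all libraries, 4861 were called in the same direction without TM replicate 2 and 0 in the opposite one. The median log2 fold change over all tested genes was -0.07 with all libraries and 0.02 without TM replicate 2. Scaling by TMM factors assumes that most genes are unchanged, so medians near 0 were largely fixed in advance. They cannot show whether the genes shifted as a whole.

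TM replicate 2 stood apart from the other TM libraries. Its mean correlation with its own group was 0.779, against 0.884 and 0.878 for TM replicates 1 and 3 and 0.938 to 0.954 for the TMPC libraries. The means of TM replicates 1 and 3 include their correlation with TM replicate 2. Between TM replicates 1 and 3 the counts differed by a chi-square per degree of freedom of 28.4, against 58 to 125 between TMPC libraries. TM replicate 2 held 0 counts of 4 Y-linked genes, where the other TM and TMPC libraries held 493 to 5420. Summed CPM (counts scaled to library size, with TMM factors) of 14 adipocyte genes was 25628 in it against 199 and 171 in the other TM libraries and 114 to 296 in TMPC. Its 23 columnar epithelium genes summed to 1635 CPM against 8233 and 8469, and its 14 cytotoxic and NK cell genes to 699 against 27.4 and 41.3. Counts of lists are therefore given with and without TM replicate 2, and so are the values of many genes. TMPC replicate 1 held less epithelial RNA than the other TMPC libraries, with 113 CPM of the epithelial adhesion gene Epcam against 608 and 649.

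The tumours were checked against the markers of gastric tissue that their label names. Epithelial genes were present, with Epcam at 458, 55.2 and 535 CPM in TM replicates 1 to 3 and the simple keratin Krt8 at 739, 49.6 and 817 CPM. Of the gastric surface markers, 3 were scarce. Tff1, a trefoil peptide of the gastric pit, stayed at or below 0.0908 CPM in all 6 libraries. Cldn18, a stomach claudin, was at 0 in 5 of the 6 libraries and at 1.45 CPM in TM replicate 3. The gastric mucin Muc5ac was at 7.69, 0.358 and 4.31 CPM in TM and at 0.281, 0 and 0.299 CPM in TMPC. Other genes of the gastric pit and mucous list were present in TM replicates 1 and 3, where the list summed to 3551 and 1473 CPM, against 111 CPM in TM replicate 2 and 7.86 to 62.6 CPM in TMPC. Dmbt1, a secreted mucin-like protein, made up most of the sum in TM replicate 1, and Agr2, a chaperone of mucin-secreting cells, was at 41.4 and 53.1 CPM in TM replicates 1 and 3.

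Promoters of 6 genes are shown because they carry elements known from cell cycle and interferon genes, which are described below. Sequences are the RefSeq windows of GRCm38.p6 from 250 bases before to 50 bases after the start of the gene, read 5′ to 3′ on the gene's strand. Capitals mark an E2F site (GCGGGAA) in Chaf1a, a subunit of the chromatin assembly factor (chr17:56040166-56040465, plus strand). They mark the cell cycle homology region (TTTGAA) in the ubiquitin-conjugating enzyme Ube2c (chr2:164769679-164769978, plus strand) and in the mitotic kinase Cdk1 (chr10:69352863-69353162, minus strand). In the antiviral oligoadenylate synthetase Oas3 (chr5:120777610-120777909, minus strand) and the interferon-induced GTPases Irgm1 (chr11:48871371-48871670, minus strand) and Gbp3 (chr3:142559794-142560093, plus strand) they mark the ISRE core, which is GAAA, NN and GAAA in a row, where N is any base. Matches on either strand are shown, so some read as the reverse complement.
Chaf1a: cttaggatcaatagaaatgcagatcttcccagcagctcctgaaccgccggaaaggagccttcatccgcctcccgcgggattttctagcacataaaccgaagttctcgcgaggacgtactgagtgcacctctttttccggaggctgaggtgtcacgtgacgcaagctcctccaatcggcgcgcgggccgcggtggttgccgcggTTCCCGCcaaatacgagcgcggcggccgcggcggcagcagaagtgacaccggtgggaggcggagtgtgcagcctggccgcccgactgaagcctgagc
Ube2c: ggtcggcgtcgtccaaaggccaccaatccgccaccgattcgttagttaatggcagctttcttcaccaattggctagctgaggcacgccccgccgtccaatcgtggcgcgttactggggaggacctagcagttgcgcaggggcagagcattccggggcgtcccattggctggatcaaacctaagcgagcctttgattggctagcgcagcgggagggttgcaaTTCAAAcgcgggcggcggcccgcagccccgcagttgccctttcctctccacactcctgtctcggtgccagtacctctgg
Cdk1: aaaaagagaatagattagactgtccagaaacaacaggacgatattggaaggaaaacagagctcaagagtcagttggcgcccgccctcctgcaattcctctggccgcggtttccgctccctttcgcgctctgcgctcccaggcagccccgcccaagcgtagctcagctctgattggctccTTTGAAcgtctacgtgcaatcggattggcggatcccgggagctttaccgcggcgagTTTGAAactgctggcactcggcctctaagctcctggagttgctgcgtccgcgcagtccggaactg
Oas3: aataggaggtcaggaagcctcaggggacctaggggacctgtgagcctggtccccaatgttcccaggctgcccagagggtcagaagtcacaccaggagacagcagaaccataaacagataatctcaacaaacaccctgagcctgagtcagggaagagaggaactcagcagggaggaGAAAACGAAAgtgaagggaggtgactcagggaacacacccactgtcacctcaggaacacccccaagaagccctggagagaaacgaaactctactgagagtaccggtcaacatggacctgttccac
Irgm1: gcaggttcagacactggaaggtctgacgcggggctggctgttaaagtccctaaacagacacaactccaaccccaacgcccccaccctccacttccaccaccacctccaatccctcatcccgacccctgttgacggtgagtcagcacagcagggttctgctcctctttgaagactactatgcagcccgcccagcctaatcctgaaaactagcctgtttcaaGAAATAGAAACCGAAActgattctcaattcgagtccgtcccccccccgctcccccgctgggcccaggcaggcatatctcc
Gbp3: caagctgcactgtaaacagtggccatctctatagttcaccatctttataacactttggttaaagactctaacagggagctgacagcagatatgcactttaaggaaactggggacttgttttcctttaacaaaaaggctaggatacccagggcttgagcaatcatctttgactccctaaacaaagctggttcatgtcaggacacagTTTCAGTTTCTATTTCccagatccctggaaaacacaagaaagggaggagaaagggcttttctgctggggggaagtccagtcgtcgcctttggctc

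The ISRE core was found in 11 of the 22 interferon-stimulated genes with a window, or 50%. It lay in 9 of 12 interferon gamma GTPase and chemokine genes, or 75%. Its share was 3.99% of all 27025 genes with a window and 3.78% of the 11467 tested ones. In Irgm1 and Gbp3 it matched 2 times, overlapping itself. TTTGAA lay in 25 of 33 mitosis genes, or 75.8%, but in 6 of 29 DNA replication genes, or 20.7%. Its share was 20.2% of all genes and 14.4% of the tested ones. In Cdk1 it matched 2 times and in Ube2c 1 time, in each case before the start. GCGGGAA lay in 15 of 29 DNA replication genes, or 51.7%, and in 1 of 33 mitosis genes, or 3.03%. Its share was 5.29% of all genes and 9.18% of the tested ones. In all 9 motifs were searched on both strands. CACGTG was in 25.9% of the ribosome biogenesis genes, 8.09% of all and 11.2% of the tested ones. ACGTG, which lies within CACGTG, was in 73.7% of the glycolysis genes, 21.8% of all and 27.9% of the tested ones. CCAAT was in 72.7% of the mitosis genes, 62.1% of the replication genes, 41.1% of all and 42.1% of the tested ones. It was also in 70.6% of the MHC class I genes. Over the lists searched its share ranged from 27.3% in the interferon-stimulated genes to 72.7%. TTCNNNGAA was in 41.7% of the interferon gamma genes, 9.55% of all and 8.34% of the tested ones. The E2F spellings TTTCCCGC and TTTGGCGC were each in 20.7% of the replication genes. Their shares were 1.24% and 0.585% of all genes and 2.12% and 1.06% of the tested ones. Each match describes letters in a window and is not a binding site by itself.

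**Figure D1:**
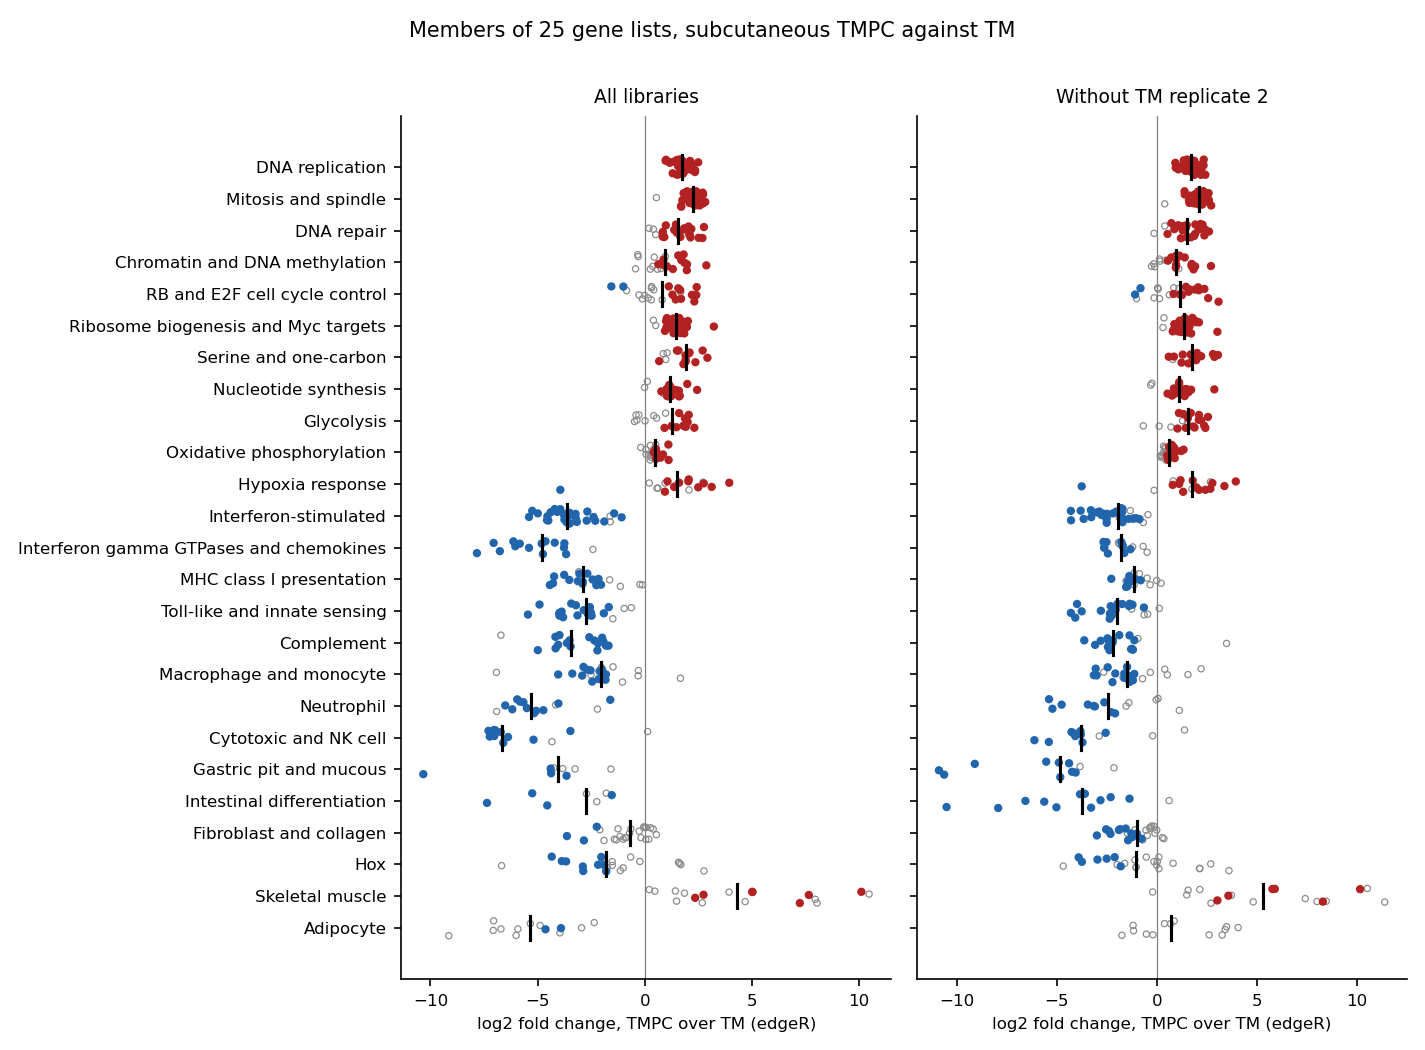
Log2 fold change (x axis, TMPC over TM) of the tested members of 25 gene lists, with all libraries on the left and without TM replicate 2 on the right. Filled points passed the edgeR threshold, red for higher and blue for lower, open points did not, and black bars are medians. The replication and mitosis lists lie right of 0 in both panels, whereas the interferon gamma list moves from a median of -4.81 to -1.77.

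Cell division genes were higher throughout the TMPC tumours. All 35 DNA replication genes rose, with a median log2 fold change of 1.74, and 1.70 without TM replicate 2. Of 39 mitosis and spindle genes 38 rose and 0 fell, with a median of 2.26, and 2.10 without TM replicate 2. Mcm2, part of the replicative helicase, was at 44.3, 44.9 and 46.5 CPM in TM and at 242, 222 and 168 CPM in TMPC. Every TMPC library stood above every TM library, by log2 2.22 ± 0.16 (SE, edgeR adjusted p = 0.000537), and by 2.23 ± 0.18 without TM replicate 2. Cdk1, the kinase that starts mitosis, was at 34.1, 19.6 and 39 CPM in TM and at 197, 172 and 169 CPM in TMPC, a rise of 2.54 ± 0.25 (adjusted p = 0.000691). Aurka, a kinase of the spindle poles, went from 19.9, 10.6 and 18.1 CPM to 100, 129 and 95 CPM, a rise of 2.74 ± 0.25 (adjusted p = 0.000645). The proliferation marker Mki67 was at 172, 164 and 115 CPM in TM and 470, 514 and 471 CPM in TMPC, again without overlap (log2 1.69 ± 0.19, adjusted p = 0.00103). Groups did not overlap, with TMPC above TM, in 35 replication and 38 mitosis genes, against 24.1% of all tested genes. The counts of genes past the threshold were 35 and between 37 and 38 whichever of the 6 libraries was left out.

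Among the regulators of entry into S phase, 10 of 23 RB and E2F genes rose and 2 fell, and 13 rose and 2 fell without TM replicate 2, or 1 fell when TM replicate 1 was also left out. Ccne1, the cyclin E that activates Cdk2, was at 4.83, 16 and 5.54 CPM in TM and 48.1, 38.6 and 43.7 CPM in TMPC. The TMPC libraries lay close together, and TM replicate 2 stood above the other TM libraries. The rise was log2 2.31 ± 0.44 (adjusted p = 0.00636), and with TM replicate 2 left out it was 3.09 ± 0.19 (adjusted p = 0.000253). Cdk4, partner of the D cyclins, rose by log2 1.69 ± 0.26 (adjusted p = 0.0028), from 203, 118 and 243 to 560, 651 and 602 CPM. Rb1, the retinoblastoma protein that holds E2F factors in check (chromosome 14, 73183673 to 73325822), fell from 44.4, 96.7 and 45.9 CPM to 16.1, 23.6 and 23.6 CPM. Here too the groups did not overlap (log2 -1.56 ± 0.33, adjusted p = 0.0098, and -1.08 ± 0.22 without TM replicate 2). The second gene that fell was Rbl2, a relative of Rb1, named after its values were seen, at 68.9, 86 and 55.6 CPM in TM and 40.3, 35.3 and 29.6 CPM in TMPC (adjusted p = 0.00756).

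Chromatin and repair genes followed the same direction. Of 22 chromatin and DNA methylation genes 12 rose and 0 fell, with a median of 0.94, and of 24 DNA repair genes 20 rose and 0 fell, with a median of 1.55. Without TM replicate 2 the rises were 14 and 22, with medians of 0.98 and 1.51, and 0 fell in either list. Hells, a helicase needed for DNA methylation (chromosome 19, 38930915 to 38971051), was at 24.2, 15.5 and 22.9 CPM in TM and 142, 146 and 169 CPM in TMPC, a rise of log2 2.87 ± 0.19 (adjusted p = 0.000537). Dnmt1, the maintenance methyltransferase, rose from 103, 107 and 93.2 CPM to 371, 376 and 348 CPM (log2 1.85 ± 0.14, adjusted p = 0.000537). Ezh2, the Polycomb histone methyltransferase, rose by 1.81 ± 0.16 and the checkpoint kinase Chek1 by 2.51 ± 0.27 (adjusted p = 0.000609 and 0.000849). In each of these the lowest TMPC library stood above the highest TM library.

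Genes of protein and nucleotide production were also higher. Of 35 ribosome biogenesis and Myc target genes 32 rose in either fit and 0 fell, with a median of 1.45, and 1.38 without TM replicate 2. Tfrc, the transferrin receptor that brings iron into cells (chromosome 16, 32608920 to 32632794), was at 89.7, 54.9 and 96.7 CPM in TM and 568, 909 and 774 CPM in TMPC. All TMPC values were far above the TM values, by log2 3.22 ± 0.29 (adjusted p = 0.000601). Eif4e, the cap-binding protein of translation, rose by 1.63 ± 0.16 (adjusted p = 0.000689). Myc itself was at 457, 83.7 and 462 CPM in TM and 839, 768 and 874 CPM in TMPC and did not pass the test (log2 1.31 ± 0.63, adjusted p = 0.134, and 0.87 ± 0.41 without TM replicate 2 at adjusted p = 0.126). Its partner Zbtb17 rose by 1.40 ± 0.16 (adjusted p = 0.00111).

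Serine and one-carbon genes rose in 12 of 15 members, and in 14 without TM replicate 2, with medians of 1.90 and 1.78. The 14 became 8 when TM replicate 1 was also left out. Phgdh, the first enzyme of serine synthesis (chromosome 3, 98313170 to 98339990), was at 47.2, 65.3 and 61.7 CPM in TM and at 372, 381 and 378 CPM in TMPC. The TMPC libraries differed from each other by little (SD 4.66 CPM), and the rise was log2 2.70 ± 0.20 (adjusted p = 0.000537). Tyms, which makes thymidylate, rose by 2.09 ± 0.19 (adjusted p = 0.000646). Of 20 nucleotide synthesis genes 17 rose, and 18 without TM replicate 2. Rrm2, the small subunit of ribonucleotide reductase, led them, from 26.4, 55.9 and 28.7 to 142, 247 and 213 CPM (log2 2.44 ± 0.34, adjusted p = 0.00204). Paics, a purine enzyme and the most abundant member, was at 424, 127 and 420 CPM in TM and 313, 385 and 360 CPM in TMPC and did not pass in either fit (adjusted p = 0.831 and 0.329).

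Of 19 glycolysis genes 11 rose and 0 fell, and 14 rose without TM replicate 2, with medians of 1.25 and 1.56, or 8 when TM replicate 1 or 3 was also left out. Pkm, the pyruvate kinase, was at 732, 1424 and 969 CPM in TM and 2952, 3641 and 5119 CPM in TMPC (log2 1.91 ± 0.32, adjusted p = 0.00381). Pgam1, phosphoglycerate mutase, rose from 215, 420 and 246 to 792, 1214 and 1516 CPM (2.00 ± 0.32, adjusted p = 0.00349). In both genes the groups did not overlap. Oxidative phosphorylation moved less, with 9 of 28 subunits higher, 0 lower and a median of 0.50. That count was 15 without TM replicate 2 (3 or 6 when TM replicate 1 or 3 was also left out), 5 without TM replicate 1 or 3, and 3 without TMPC replicate 3.

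The hypoxia list held genes that moved far in opposite directions. Ddit4, an inhibitor of mTORC1 that hypoxia induces (chromosome 10, 59949669 to 59951834), was at 43.8, 54.5 and 70.1 CPM in TM and 570, 1225 and 800 CPM in TMPC. It rose by log2 3.94 ± 0.39 (adjusted p = 0.0007), and by 3.95 ± 0.47 without TM replicate 2. Epas1, which encodes the oxygen-regulated factor HIF-2 alpha (chromosome 17, 86753700 to 86833410), was at 392, 495 and 321 CPM in TM and 32.5, 21.2 and 24.9 CPM in TMPC. All TMPC libraries lay far below all TM libraries, 15.4-fold with all libraries and 13.4-fold without TM replicate 2 (log2 -3.94 ± 0.26 and -3.75 ± 0.23, adjusted p = 0.000537 and 0.000253). Of the 18 genes of the list 10 rose and Epas1 alone fell, and the count of rises was 5 without TMPC replicate 3. With all libraries the rises were 8 and 7 without TM replicate 1 and 3. Without TM replicate 2, 12 rose and Epas1 alone fell. The 12 rises became 16, 9 and 9 when TMPC replicate 1, 2 or 3 was also left out. The list's mean level was 6.33 in TMPC replicate 1 against 7.31 and 7.76 in TMPC replicates 2 and 3 (log2 of CPM + 0.5), and 5.77 to 5.85 in TM.

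**Figure D2:**
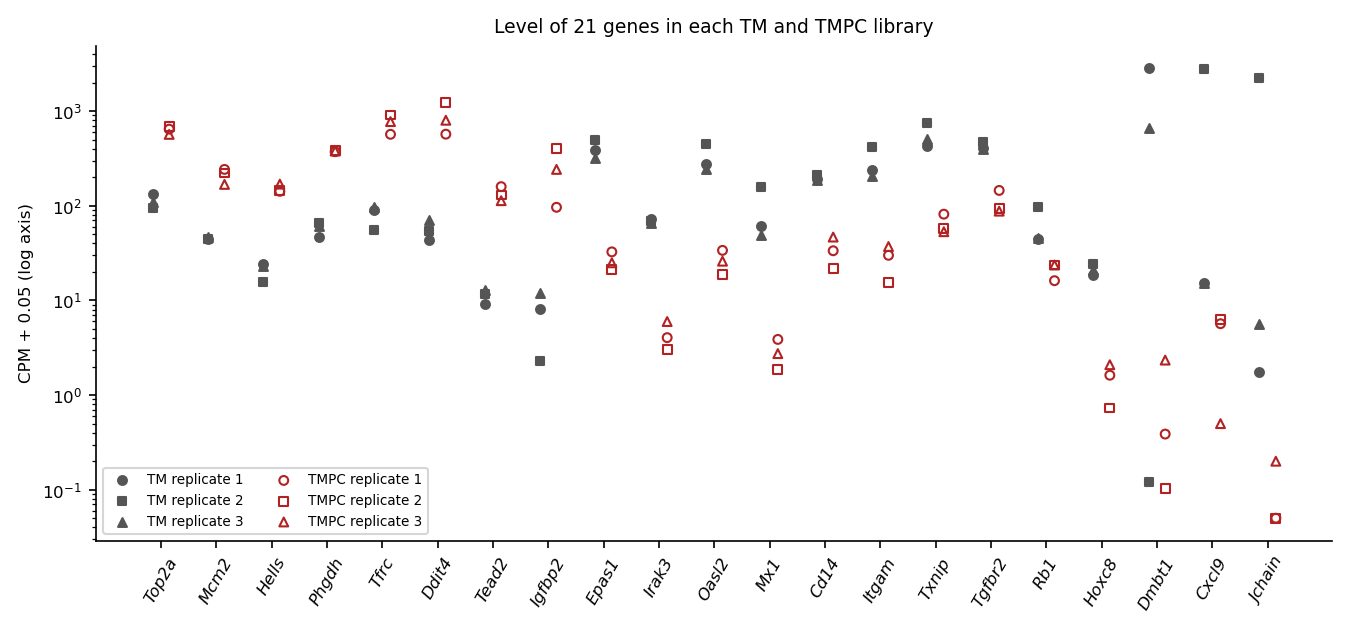
Level of 21 genes in each library (y axis, CPM + 0.05 on a log axis), with TM replicates as filled grey and TMPC replicates as open red symbols. Mcm2, Phgdh, Irak3 and Epas1 separate the groups with little spread within them, whereas Cxcl9 and Jchain are high in TM replicate 2 alone and Dmbt1 in TM replicates 1 and 3.

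Innate sensing and interferon genes were lower in TMPC. Of 32 interferon-stimulated genes 0 rose and 30 fell, with a median log2 fold change of -3.62, and 27 fell without TM replicate 2, with a median of -1.95. Oasl2, an antiviral oligoadenylate synthetase-like protein, was at 274, 448 and 247 CPM in TM and 33.7, 18.9 and 25.9 CPM in TMPC (log2 -3.62 ± 0.31, adjusted p = 0.000541). Mx1, a GTPase that blocks viral replication, was at 61.2, 156 and 49.3 CPM in TM and 3.82, 1.83 and 2.69 CPM in TMPC, a fall of -4.99 ± 0.56, and -4.29 ± 0.38 without TM replicate 2 (adjusted p = 0.000983 and 0.00043). Oas3, whose promoter is shown above, fell from 48.6, 311 and 41 CPM to 3.37, 2.41 and 3.69 CPM (-5.40 ± 0.87, adjusted p = 0.00344, and -3.80 ± 0.32 without TM replicate 2). None of these genes overlapped between the groups. TMPC lay below TM without overlap in 30 of the 32 genes, against 23% of all tested genes. Between 21 and 31 of the list fell whichever library was left out of the full set.

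Toll-like receptor and innate sensing genes fell in 17 of 20 members, and in 16 without TM replicate 2, or 10 when TM replicate 1 was also left out. Irak3, a pseudokinase that dampens Toll-like receptor signalling (chromosome 10, 120141648 to 120202130), was at 71.5, 68.1 and 66.2 CPM in TM and 3.99, 2.99 and 5.93 CPM in TMPC. TM replicate 2 did not differ from the other TM libraries here, and the fall was -3.99 ± 0.28 (adjusted p = 0.000537). The receptor Tlr4 fell from 63.5, 132 and 50.4 to 14.6, 12.3 and 16.4 CPM (-2.51 ± 0.37, adjusted p = 0.0025), and the DNA sensor Aim2 from 43.4, 55.3 and 45.9 to 5.45, 1.83 and 2.54 CPM (-3.88 ± 0.46, adjusted p = 0.00115). Tmem173, the adaptor STING and the most abundant member, was at 67.2, 212 and 58.6 CPM in TM and 77.8, 24.2 and 18.4 CPM in TMPC, so the groups overlapped and it did not pass (adjusted p = 0.127). The list's count was 10 without TMPC replicate 2 and 11 without TMPC replicate 3.

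Complement genes fell in 16 of 17 members, and in 15 without TM replicate 2. C1s1, a protease of the first complement component, fell by -4.17 ± 0.76, and by -2.80 ± 0.32 without TM replicate 2 (adjusted p = 0.00531 and 0.000749). The count of complement genes was 10 without TMPC replicate 2.

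The genes that answer mainly to interferon gamma depended strongly on TM replicate 2. Of 15 GTPase and chemokine genes 14 fell, with a median of -4.81, but 9 fell without TM replicate 2, with a median of -1.77, and 2 or 1 when TM replicate 1 or 3 was left out as well. With all libraries the count was 2 without TMPC replicate 1 and 0 without TMPC replicate 2 or 3. Irgm1 was at 85.8, 838 and 99.2 CPM in TM and 30.6, 25.7 and 23.8 CPM in TMPC. It fell by -3.67 ± 0.89 (adjusted p = 0.0155), and by -1.77 ± 0.28 without TM replicate 2 (adjusted p = 0.00248), while the first call ended without TMPC replicate 2 or 3 (adjusted p = 0.057 and 0.0565). Cxcl9, a chemokine that attracts T cells, was at 15.1, 2764 and 15.1 CPM in TM and 5.62, 6.18 and 0.449 CPM in TMPC. Its change was -7.83 ± 2.46 (adjusted p = 0.0382), and -1.87 ± 1.11 without TM replicate 2, where it did not pass (adjusted p = 0.208). The TM value of Cxcl9 is thus almost wholly that of 1 library, and its call also ended when any TMPC library was left out (adjusted p = 0.0918, 0.105 and 0.104 without TMPC replicate 1, 2 and 3).

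Antigen presentation followed the interferon genes. Of 19 MHC class I pathway genes 14 fell, and 11 without TM replicate 2, and of 10 class II genes 7 and 5. When TM replicate 1 or 3 was left out beside TM replicate 2, 5 or 4 class I and 2 or 1 class II genes fell, and 3 class II genes when TMPC replicate 2 or 3 was left out beside it. Tapbp, tapasin, which loads peptides onto class I molecules, was at 290, 1213 and 354 CPM in TM and 117, 104 and 123 CPM in TMPC (-2.43 ± 0.52, adjusted p = 0.00979, and -1.47 ± 0.18 without TM replicate 2 at adjusted p = 0.000934). Ctss, a protease of the class II pathway, fell from 554, 1522 and 533 to 194, 156 and 177 CPM (-2.31 ± 0.46, adjusted p = 0.00767). B2m, the light chain of class I molecules, was at 680, 4540 and 699 CPM in TM and 470, 253 and 201 CPM in TMPC. Its call with all libraries (adjusted p = 0.0378) ended without TM replicate 2 (log2 -1.14 ± 0.48, adjusted p = 0.0896) and without TMPC replicate 1, 2 or 3 (adjusted p = 0.0551, 0.117 and 0.114). The class I count was 4, 1 and 2 and the class II count 4, 2 and 2 without TMPC replicate 1, 2 and 3.

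Leukocyte markers were lower as well. Ptprc, the pan-leukocyte antigen CD45, was at 163, 1138 and 140 CPM in TM and 28.1, 19.8 and 17.4 CPM in TMPC, with no overlap (-4.46 ± 0.95, adjusted p = 0.00969, and -2.78 ± 0.48 without TM replicate 2 at adjusted p = 0.00361). Of 22 macrophage and monocyte genes 14 fell in either fit, and 9 without TM replicates 2 and 3. Their summed level was 7210 to 14870 CPM in TM and 1768 to 2927 CPM in TMPC, and 0 of the 22 were at 0 in any library. Itgam, the integrin CD11b of myeloid cells, was at 237, 414 and 206 CPM in TM and 29.9, 15.3 and 37 CPM in TMPC (-3.38 ± 0.41, adjusted p = 0.00131). Adgre1, the macrophage antigen F4/80, was lowest of the TM libraries in TM replicate 2, at 294, 150 and 255 CPM against 47.6, 21.1 and 23.7 CPM in TMPC (-2.92 ± 0.48, adjusted p = 0.00356). The endotoxin receptor Cd14 fell from 192, 210 and 185 to 33.4, 21.5 and 46.6 CPM (-2.53 ± 0.27, adjusted p = 0.000812). The part of this leukocyte difference in the fall of interferon, antigen presentation and complement genes was not tested.

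Neutrophil genes fell in 11 of 14 members, and in 9 without TM replicate 2, or 4 when TM replicate 3 was also left out. Fpr1, a formyl peptide receptor, was at 29.5, 44.9 and 27.1 CPM in TM and 1.4, 0.0524 and 0.549 CPM in TMPC (-5.66 ± 1.00, adjusted p = 0.0049). The count was 6, 5 and 7 without TMPC replicate 1, 2 and 3. Lymphoid markers were low outside TM replicate 2. Summed over 15 T cell genes the level was 13.7, 322 and 20.2 CPM in TM and 6.86 to 8.13 CPM in TMPC, and 5 of the 7 tested fell, or 3 without TM replicate 2. Foxp3, the factor of regulatory T cells, fell from 1.77, 1.07 and 0.817 to 0.112, 0.105 and 0.199 CPM (-3.07 ± 0.62, adjusted p = 0.00796). These levels rest on 67 counts in TM and 8 in TMPC. Of 12 cytotoxic and NK cell genes 10 fell, or 9 without TM replicate 2, and 6, 6 and 2 without TMPC replicate 1, 2 and 3. Klrd1, an NK cell receptor, was at 2.08, 18.7 and 3 CPM in TM and 0.112, 0.0524 and 0 CPM in TMPC (-7.04 ± 1.34, adjusted p = 0.00638). TMPC held 3 Klrd1 counts in all, so the ratio of TM to TMPC was 126 with a 95% counting interval of 42.8 to 614. Without TM replicate 2 and TM replicate 1 or 3, 0 or 1 T cell genes and 3 cytotoxic genes fell, and 1 T cell gene without TM replicate 2 and TMPC replicate 3. With all libraries the T cell count was 8 without TM replicate 1 and 1, 2 and 1 without TMPC replicate 1, 2 and 3.

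**Figure D3:**
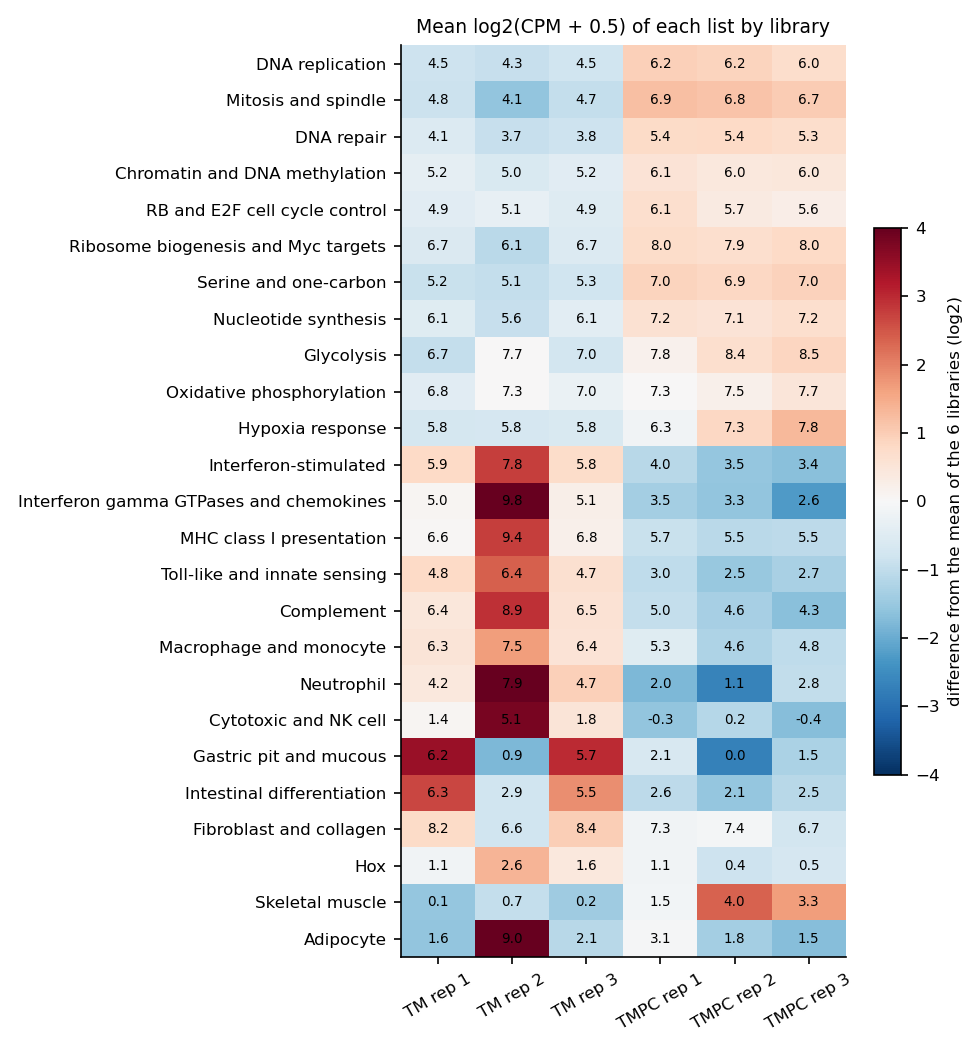
Mean log2(CPM + 0.5) of the tested members of 25 lists (rows) in each TM and TMPC library (columns), printed in each cell. Colour is the difference from the mean of the 6 libraries, with full colour at 4 or more in either direction. The adipocyte, interferon gamma and cytotoxic rows stand out in TM replicate 2, and the gastric and intestinal rows are high in TM replicates 1 and 3.

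Epithelial differentiation genes were lower in TMPC when TM replicate 2, itself poor in epithelial RNA, was set aside. Of the gastric pit and mucous genes 4 of 8 tested fell with all libraries and 9 of 11 without TM replicate 2, and of the intestinal genes 4 of 7 and 11 of 12, or 6 when TM replicate 1 was also left out. Dmbt1, a secreted mucin-like protein (chromosome 7, 131032053 to 131121630), was at 2850, 0.0716 and 658 CPM in TM and 0.337, 0.0524 and 2.29 CPM in TMPC. TM replicate 2 was as low as the TMPC libraries. The fall was -10.33 ± 2.72 with all libraries (adjusted p = 0.0209) and, with TM replicate 2 left out, -10.88 ± 1.13 (adjusted p = 0.000579), and the first call ended without TMPC replicate 1 or 2 (adjusted p = 0.0659 and 0.073). Fcgbp, a protein of intestinal mucus, fell in both fits, from 129, 23 and 38 to 1.12, 0.891 and 2.94 CPM (-5.25 ± 0.85, adjusted p = 0.00352, and -5.62 ± 0.73 without TM replicate 2). Hnf4g, a factor of gut epithelium, was at 5.19, 0 and 4.81 CPM in TM and had 0 counts in TMPC, at least 70.8-fold lower when TMPC is set at 3 counts in all. It was too low for the test with all libraries and passed without TM replicate 2 (adjusted p = 0.00372). Klf5, a factor of proliferating epithelium, was at 184, 3.3 and 176 CPM in TM and 22.7, 31.7 and 50.4 CPM in TMPC, a change of -1.79 ± 1.04 that did not pass, and of -2.34 ± 0.34 that did without TM replicate 2 (adjusted p = 0.205 and 0.00187). The gastric count with all libraries was 2 without TM replicate 1, 1 without TMPC replicate 2 and 2 without TMPC replicate 3. Of the 15 foregut and gastric transcription factors tested without TM replicate 2, 8 fell and 0 rose, and 3 or 5 fell when TM replicate 1 or 3 was also left out. With all libraries 2 of 13 fell, or 1 without any 1 of the other libraries, and 1 rose. The gene that rose was Isl1, a LIM homeobox factor, at 0.0519, 0 and 0 CPM in TM and 6.01, 1.52 and 0.0499 CPM in TMPC (adjusted p = 0.0298, and 0.0525 without TM replicate 2), named after its values were seen.

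Of 23 columnar epithelium and adhesion genes 0 passed with all libraries and 6 fell without TM replicate 2, with medians of -0.08 and -0.50. Fold changes were negative in 13 of the 23 with all libraries and in 22 without TM replicate 2. The 6 falls became 1 and 3 when TM replicate 1 or 3 was also left out, 4 without TMPC replicate 2 and 11 without TMPC replicate 3. Epcam was at 458, 55.2 and 535 CPM in TM and 113, 608 and 649 CPM in TMPC, so the groups overlapped (log2 0.39 ± 0.81, adjusted p = 0.735, and -0.10 ± 0.59 without TM replicate 2 at adjusted p = 0.908). Cdh1, E-cadherin, was at 781, 38.8 and 721 CPM in TM and 105, 292 and 365 CPM in TMPC. It did not pass with all libraries (-1.02 ± 0.88, adjusted p = 0.389) and fell without TM replicate 2 (-1.54 ± 0.43, adjusted p = 0.022). The basal keratin Krt14 varied widely within both groups, at 457, 4.15 and 775 CPM in TM and 191, 1276 and 2767 CPM in TMPC (adjusted p = 0.335).

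Of 20 growth factor receptors and ligands 4 fell and 1 rose with all libraries, against 17.8% and 18% of all genes, and 8 fell and 0 rose without TM replicate 2. The 4 falls became 2 without TMPC replicate 1 or 2 and 1 without TMPC replicate 3, and the 8 became 4 when TM replicate 1 or 3 was also left out. Btc, betacellulin, an EGF receptor ligand, was at 20.7, 3.15 and 17.6 CPM in TM and 2.02, 1.94 and 1.8 CPM in TMPC (-2.85 ± 0.64, adjusted p = 0.0116, and -3.29 ± 0.29 without TM replicate 2 at adjusted p = 0.000432). Erbb2 was at 203, 18.2 and 175 CPM in TM and 25.3, 48.1 and 59.7 CPM in TMPC and fell only in the fit without TM replicate 2 (-2.07 ± 0.32, adjusted p = 0.00239, against 0.122 with all libraries). Tgfbr2, the type II TGF-beta receptor, was at 404, 470 and 399 CPM in TM and 145, 92.9 and 87.6 CPM in TMPC. Its groups were far apart in every library (-1.97 ± 0.24, adjusted p = 0.00137). Of 22 TGF-beta and BMP genes 5 fell and 3 rose without TM replicate 2, against 20.1% and 20.7% of all genes. The 5 falls became 4 when any 1 TMPC library was also left out, and the rises 3 or 4. With all libraries 4 fell and 2 rose, with 2 falls without TMPC replicate 3 and 1 rise without TM replicate 1 or 3 or TMPC replicate 3. The falls with all libraries reach the receptors Tgfbr1 and Tgfbr2 and the ligands Bmp2 and Bmp4, of which Bmp2 was named after its values were seen. The Tgfbr1 call (-0.65 ± 0.18, adjusted p = 0.0261) ended when any library other than TM replicate 2 was left out (adjusted p from 0.064 without TM replicate 3 to 0.124 without TM replicate 1).

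Of 14 YAP and TEAD genes 2 rose and 2 fell, with 4 falls without TM replicate 2, 2 when TM replicate 1 was also left out, and 1 rise without TMPC replicate 2 or 3. Tead2, a DNA-binding partner of YAP (chromosome 7, 45215753 to 45233644), rose from 9.09, 11.7 and 12.8 CPM to 159, 130 and 113 CPM (3.58 ± 0.24, adjusted p = 0.000537). Lats2, the kinase that inhibits YAP, was at 51.3, 89.5 and 51.7 CPM in TM and 21, 21.9 and 21.9 CPM in TMPC (-1.57 ± 0.25, adjusted p = 0.00338). Txnip, a glucose-responsive arrestin, was at 427, 745 and 512 CPM in TM and 81.4, 57.4 and 53.1 CPM in TMPC (-3.13 ± 0.33, adjusted p = 0.000807). Fos, an immediate early factor of AP-1, fell from 158, 115 and 73 to 19.5, 30.1 and 25.7 CPM (-2.20 ± 0.30, adjusted p = 0.002). In these 4 genes every TMPC library lay on the same side of every TM library.

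Few cancer driver genes changed with all libraries, 3 up and 3 down of 32, and 7 up and 8 down without TM replicate 2. Trp53 was at 50.7, 85 and 60 CPM in TM and 79.8, 132 and 113 CPM in TMPC, with overlap. It rose by 0.73 ± 0.24 (adjusted p = 0.0438), and by 0.99 ± 0.21 without TM replicate 2 (adjusted p = 0.00865), but the first call ended without TM replicate 1 or 3 or TMPC replicate 2 or 3 (adjusted p = 0.0679, 0.1, 0.0817 and 0.0879). Of 25 p53 pathway genes 3 rose and 1 fell, with 3 falls without TM replicate 1 or 3 and 0 without any 1 TMPC library. Without TM replicate 2, 4 rose and 1 fell. The p53 target Cdkn1a, an inhibitor of cyclin-dependent kinases, was at 30.2, 122 and 48.5 CPM in TM and 44.6, 90.9 and 138 CPM in TMPC (adjusted p = 0.559). Cdkn2a, the locus of p16 and p19, was at 128, 13 and 176 CPM in TM and 549, 235 and 221 CPM in TMPC. It did not pass with all libraries (1.67 ± 0.78, adjusted p = 0.126) and passed narrowly without TM replicate 2 (1.16 ± 0.40, adjusted p = 0.0495). Apc, Smad4 and Arid1a passed in neither fit (adjusted p from 0.137 to 0.881). Without 1 library the counts of drivers ranged from 1 to 7 up and from 2 to 8 down, with 1 up without TMPC replicate 2 or 3 and 5 up without TMPC replicate 1. Without TM replicate 2 the 7 up became 1, 3 and 12 and the 8 down 3, 5 and 9 when TM replicate 1, TM replicate 3 or TMPC replicate 1 was also left out.

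Host tissue genes varied by library. Fibroblast and collagen genes fell in 3 of 25 members with all libraries and in 12 without TM replicate 2, or 6 when TM replicate 3 was also left out. Thy1, a surface protein of fibroblasts, was at 141, 72.9 and 206 CPM in TM and 19.7, 37.8 and 31.3 CPM in TMPC (-2.24 ± 0.50, adjusted p = 0.0116). Col1a1, a chain of type I collagen, was at 4160, 432 and 5429 CPM in TM and 1209, 1590 and 1176 CPM in TMPC and fell only in the fit without TM replicate 2 (-1.83 ± 0.30, adjusted p = 0.00278, against 0.183). Skeletal muscle genes were higher in TMPC in 7 of 18 members, with a median of 4.30. Without TM replicate 2 they were higher in 6, with a median of 5.30, and in 2 when TMPC replicate 2 was also left out. Acta1, skeletal muscle actin, was at 0.26, 0.501 and 0.0908 CPM in TM and 12.7, 90.7 and 61.3 CPM in TMPC (7.65 ± 1.97, adjusted p = 0.0194). The Acta1 call ended without TM replicate 1 or 3 (adjusted p = 0.0544 and 0.0575), and the count of muscle genes was 1 without TM replicate 1 or 3 or TMPC replicate 2 and 2 without TMPC replicate 3. Summed muscle level was 67.8 CPM in TMPC replicate 1 and 425 and 323 CPM in the other TMPC libraries, and the part of this muscle RNA in other results was not tested. Of 13 adipocyte genes 2 passed with all libraries and 0 without TM replicate 2, with medians of -5.34 and 0.69. Their count was 8 without TM replicate 1, 7 without TM replicate 3 and 0 without any 1 TMPC library.

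Several genes that were scarce in TM were higher in every TMPC library. Igfbp2, a binding protein of insulin-like growth factors (chromosome 1, 72824503 to 72852474), rose from 8.15, 2.22 and 11.9 to 96.2, 401 and 242 CPM (5.04 ± 0.72, adjusted p = 0.00231). Uchl1, a neuronal deubiquitinase, rose from 1.09, 0.358 and 1.27 to 15.3, 37.1 and 39.6 CPM (5.04 ± 0.59, adjusted p = 0.0011). Slitrk5, a neuronal adhesion protein, had 1 count in the TM libraries together and 28, 16.8 and 9.28 CPM in TMPC, a ratio of 975 with a 95% counting interval of 175 to 38550. Esx1, a homeobox factor of the placenta, had 0 counts in TM and 138, 5.5 and 6.83 CPM in TMPC, at least 874-fold higher when TM is set at 3 counts in all, with a wide spread between TMPC libraries.

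Position genes of the Hox family, which record where along the body axis a tissue formed, fell in 9 of 23 tested members and rose in 0, with 6 falls without TM replicate 2, or 3 when TM replicate 3 was also left out. Hoxc8 was at 18.3, 24.1 and 20.8 CPM in TM and 1.57, 0.681 and 2.04 CPM in TMPC (-3.87 ± 0.48, adjusted p = 0.00131). Hoxc6 was at 9.66, 9.17 and 12.9 CPM in TM and 1.63, 1.1 and 1.55 CPM in TMPC (-2.89 ± 0.43, adjusted p = 0.00261). Both were lower in every TMPC library, and the Hox count was 4 without any 1 TMPC library. Cyp2b10, a drug-metabolising cytochrome, was at 22.6, 1.5 and 52.3 CPM in TM and had 0 counts in TMPC, at least 552-fold lower. The stem cell antigen Prom1 was at 547, 6.73 and 518 CPM in TM and 6.18, 28.7 and 18.9 CPM in TMPC. It fell by -4.31 ± 1.34 (adjusted p = 0.0369) and by -4.87 ± 0.66 without TM replicate 2 (adjusted p = 0.00145), and the first call ended without any 1 of the other libraries (adjusted p from 0.0724 without TM replicate 3 to 0.102 without TMPC replicate 3). The X-inactivation RNA Xist was at 297, 1490 and 190 CPM in TM and 0.337, 0.105 and 13.1 CPM in TMPC, beside Y-linked counts in every library but TM replicate 2. In the TMP libraries it was at 1.11, 0.27 and 1.8 CPM. Xist thus differed with the group label, and the part of sex in the other results was not tested.

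**Figure D4:**
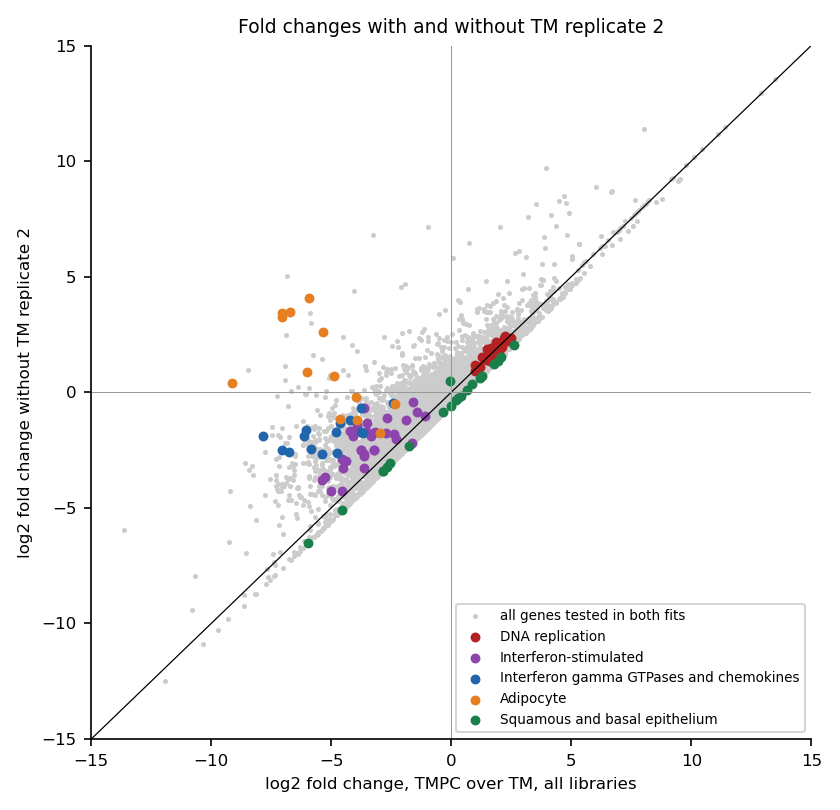
Log2 fold change (TMPC over TM) of each gene tested in both fits, with all libraries on the x axis and without TM replicate 2 on the y axis, and 5 lists in colour. Points off the diagonal depend on TM replicate 2, as the adipocyte genes do (medians -5.34 and 0.69), while the DNA replication genes lie near it (1.74 and 1.70).

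TM replicate 2 changed both which genes were called and how many. Without it 608 calls were lost, 459 of them of lower genes, and 1529 were gained, 890 of lower and 639 of higher genes. The lost calls included Cd79a, a B cell receptor chain, at 1.04, 172 and 0.59 CPM in TM and 0.899, 0.629 and 0.0499 CPM in TMPC (-6.78 ± 2.22, adjusted p = 0.0441, and -0.61 ± 0.92, adjusted p = 0.618). Jchain, which joins antibodies of plasma cells, was at 1.71, 2251 and 5.58 CPM in TM and 0, 0 and 0.15 CPM in TMPC, or 3 counts there in all. It was called in both fits, at -13.64 ± 3.40 and -5.95 ± 1.18 (adjusted p = 0.0172 and 0.00611), and the first call ended without any 1 TMPC library (adjusted p = 0.0547, 0.0649 and 0.0733). Among the gains was Flt1, a receptor of vascular endothelial growth factor, at 15.9, 62.5 and 14.1 CPM in TM and 25.6, 29.8 and 30 CPM in TMPC. Its sign turned, from -0.11 ± 0.52 (adjusted p = 0.881) to 0.94 ± 0.18 (adjusted p = 0.00586). Creld2, induced by stress of the endoplasmic reticulum, turned likewise, from -0.44 ± 0.73 (adjusted p = 0.662) to 1.21 ± 0.28 (adjusted p = 0.0109).

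Genes of chromosome 14 were lower as a whole in TMPC, a pattern looked at after the values had been seen and given without a test. Of 513 tested genes on it 5.85% rose and 33.1% fell, against 12.3% to 24% and 11.6% to 21.3% on the 19 other chromosomes (the autosomes and X). The median log2 fold change was -0.64, and -0.52 without TM replicate 2, against -0.26 to 0.11 and -0.19 to 0.20 elsewhere. Among genes with a mean of at least 5 CPM over the 6 libraries, 304 of 404 on chromosome 14 had a negative fold change, or 75.2%, against 49% on the others. In single libraries, the chromosome 14 median relative to the mean of TM replicates 1 and 3 was -0.60, -0.55 and -0.42 in TMPC and 0.09 in TM replicate 2. The TMP libraries gave -0.50, -0.61 and -0.40. All TMPC libraries were therefore low, and TM replicate 2, which differs so much elsewhere, was not. Along the chromosome, in segments of 20 Mb, the median log2 fold change lay between -0.77 and -0.52 in 6 of 7 segments, and at -0.07 in the segment from 80 to 100 Mb, which held 8 genes. Another thin segment, from 120 to 140 Mb with 15 genes, had -0.77. Rb1 lies on this chromosome and Slitrk5, which was higher in TMPC, does too. Over the alternatives tried, the chromosome 14 median stayed between -0.70 and -0.52.

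**Figure D5:**
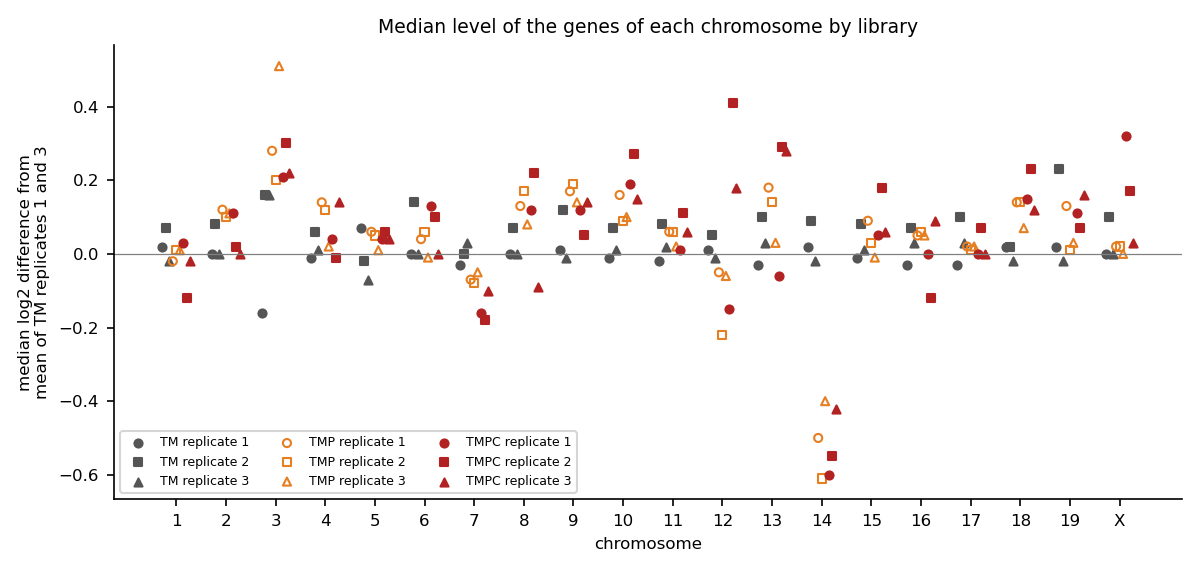
Median over the genes of each chromosome (x axis) of the log2(CPM + 0.5) difference from the mean of TM replicates 1 and 3 (y axis), for genes with a mean of at least 5 CPM, in the TM, TMP and TMPC libraries. TM replicates 1 and 3 mirror each other around 0 by construction. On chromosome 14 the TMPC points lie between -0.60 and -0.42 and the TMP points between -0.61 and -0.40.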

How the data were processed

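The labels gave groups and replicate numbers through the sample titles. The submitters' processing notes name STAR 2.6.0, DESeq2 and the build mm10. For the counter, annotation and strand setting the entry is: not given in the sources used here. Levels of genes with near-identical copies, such as the Gbp, Irgm and Oas families, or with an antisense partner, such as Xist, are uncertain. The authors deposited whole-number counts per gene beside a signal that the file headers name as DESeq2-normalized, whose values equal counts divided by 1 factor per library and which served here only to check rows. Both tables had 24421 entries. In the subcutaneous table, symbols were out of step with counts for 12131 entries, so each entry took the symbol at its position in the other table, where the TMPC counts were equal in all 24421. With them 24419 entries matched the deposited signal within 0.01 reads, against 14200 as deposited. Of 27 symbols turned into dates 26 were restored. The 3 orthotopic count columns and the 2 single-cell samples were not used, and 0 entries lacked a gene.

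Total counts were 16584781 to 21107310 per library, so 3 counts are 0.142 to 0.181 CPM. Counting error alone is covered by intervals and floors. The test on counts was edgeR 4.0.16 under R 4.3.3 (glmQLFit, TMM factors, filterByExpr, Benjamini-Hochberg 0.05) on the 9 subcutaneous libraries, or 8 without TM replicate 2, with 6 and 5 residual degrees of freedom. The standard error is the log2 fold change divided by the square root of F. These steps were first tested on simulated data. With 3 libraries in each group the smallest two-sided p of an exact permutation test is 0.1, and that test was left out. No pair of libraries of a group agreed within sampling noise (chi-square per degree of freedom 28.4 to 429).

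The comparison and the 56 gene lists were chosen with earlier results of these data known. Genes named are the 12 largest rises and falls called in both fits without overlap and with a mean of at least 5 CPM, the 4 most significant and the most abundant member of each list without TM replicate 2, 25 genes by name, and the 6 genes that moved most without TM replicate 2 among those of at least 20 CPM, in all 274. A gene named outside this rule is marked. Alternatives were leaving out each library, the 6 TM and TMPC libraries alone, DESeq2's size factors, no filter, DESeq2 1.42.0 and a replicate block. List counts without TM replicate 2 and 1 further library, and the chromosome medians, were added after seeing the data.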

Additional observations from a re-analysis of the deposited data

How the results depend on the processing

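The count of genes past the threshold was 5469 with all libraries and ranged from 3414 to 6390 when 1 library was left out, with 2104 to 3238 higher and 1310 to 3152 lower. With the TM and TMPC libraries alone it was 3536, of which 1580 were lower, from fewer samples. Without TM replicate 2 and 1 further library it ranged from 3321 to 7271, with 1678 to 3623 higher and 1628 to 3648 lower, where a lone TM library is assumed to vary like the other groups. DESeq2 called 6819 genes. Flt1 and Creld2 turned sign without TM replicate 2, at 0.94 and 1.21, against lowest values of -0.44 and -0.81 without TM replicate 3, and the cause was not tested. Flt1 was also above 0 without TMPC replicate 1 (0.05) and with the replicate block (0.15), and Creld2 with the block (0.06). Of 194 calls on named genes, 9 to 52 ended when 1 library was left out, 0 with DESeq2's size factors and 1 with no filter, and 0 of these changed direction. Same-numbered TM and TMPC libraries had correlations of deviations of -0.158, 0.059 and 0.296, and not every library correlated best with its own number. Deviations from a mean of 3 libraries depend on each other, so whether the numbers pair the samples cannot be told from these values. With the replicate block 4295 genes passed, 2309 higher and 1986 lower, and 5155 without TM replicate 2, and 33 of the 194 calls ended. At these depths a gene with under 3 counts in a group could not be told from 0.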
